A study of Homo sapiens with 6 samples.

Results

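The cytosolic translation initiation factors (eIF) and elongation factors (eEF) were followed in AsPC-1, an established human pancreatic cancer cell line, with glutamine use left intact or blocked. The genes were taken by symbol from the deposited expression table. All symbols that begin with EIF1 to EIF6, EEF1 or EEF2 were used, without the 4 kinases that phosphorylate eIF2, 4 antisense genes and 2 pseudogenes. Of 71 matching rows this left 61, out of 26228 rows in the table. By family, 5 belong to eIF1, 10 to eIF2 and its exchange factor eIF2B, 14 to eIF3, 16 to eIF4 with its binding proteins, 5 to eIF5, 1 to eIF6 and 10 to the elongation factors.

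The study held 3 libraries of vehicle-treated cells and 3 libraries of cells exposed to 6-Diazo-5-oxo-l-norleucine (DON), in each case for 24 h. DON is a reactive analog of glutamine that inactivates enzymes using this amino acid. All 6 cultures were kept without serum during the treatment, so the vehicle cells were serum-starved as well. The dose of DON is not given in the sources used here, and the cells are 1 line, so donors do not vary.

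An mRNA is translated in steps that these factors divide among themselves. eIF2 brings the initiator tRNA to the small ribosomal subunit as a complex with GTP, and eIF2B recharges eIF2 with GTP afterwards. Phosphorylation of the alpha subunit of eIF2 under amino acid or endoplasmic reticulum stress turns eIF2 into an inhibitor of eIF2B, which slows initiation in general and favours a few mRNAs such as ATF4. eIF1 and eIF1A control the choice of start codon and eIF3 is the scaffold on the small subunit. eIF4E binds the cap, eIF4G bridges it to the ribosome, eIF4A unwinds RNA, and the eIF4E-binding proteins (4E-BP) block the cap complex when mTORC1 is off. eIF5 and eIF5B act when the start codon is found and the large subunit joins. eEF1 delivers aminoacyl-tRNA and eEF2 moves the ribosome along.

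Values are FPKM, fragments scaled to transcript length and to the mapped fragments of the library, as the authors deposited them, which can be set side by side between genes. FPKM gives a transcript's share of the library, so a change in total RNA per cell is not seen. In bulk RNA, fewer cells with a transcript and less of it per cell cannot be told apart. Tests were run with limma on log2(FPKM + 1) over the 11471 genes that reached 1 FPKM in 3 or more libraries, and a gene was called at a Benjamini-Hochberg adjusted p under 0.05. Every adjusted p below is from that fit unless an alternative is named. Log2 fold changes are DON minus vehicle on the log2(FPKM + 1) scale and understate the change of genes near 1 FPKM. Errors of FPKM means are SD with n = 3 per group.

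Summed FPKM per library ranged from 525200 to 556950. ASNS, DDIT3, TRIB3 and ATF4, known responders to amino acid stress, were higher in DON in 4 of 4 cases. The epithelial marker EPCAM stood at 1090 ± 110 FPKM in vehicle and 1060 ± 137 in DON (adjusted p = 0.801), and of 5 usable epithelial markers MUC1 and CEACAM6 fell. Defining markers of other cells were near 0, with COL1A1, COL1A2, COL3A1 and DCN at means of 0.429 FPKM or less, the 3 endothelial markers at 0.0439 or less and PTPRC and CD3E at 0.110 or less. The sum of the 5 stromal markers, which was nearly all LUM, ranged from 141 to 172 FPKM in vehicle and from 88.8 to 124 in DON. CD68, a macrophage marker that other cells also express, ranged from 16.6 to 28.0 FPKM in vehicle and from 25.9 to 40.2 FPKM in DON (adjusted p = 0.101). The libraries also parted along GC content within each group. Spearman correlations across genes between a library's deviation from its group mean and transcript GC content were 0.230 and 0.307 in vehicle 1 and 2, -0.405 in vehicle 3, 0.509 in DON 1, and -0.420 and -0.415 in DON 2 and 3. Results are therefore also given within 2 sets of libraries, a first set of vehicle 1 and 2 with DON 1, and the set that remained, vehicle 3 with DON 2 and 3. A GC correction and a term for the split between the sets were also fitted, both chosen after seeing the data. The GC correction used deviations from a gene's mean over all 6 libraries, not from its group mean. Spearman correlations of these deviations with GC content were 0.301, 0.358 and -0.043 in vehicle 1 to 3. In DON 1 to 3 they were 0.132, -0.371 and -0.393. The correction can therefore also remove a DON difference that follows GC content. The GC correction gave 10 factors higher and 7 lower, and the split term 18 higher and 10 lower. The split was drawn from these same values. Over all tested genes its term gave 2884 higher and 3147 lower, against 2096 and 2363 without it. A call gained with the split term is therefore not independent support. The part of the marker differences in the results was not tested.

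Counted by symbol, the EIF genes, 46 of the 55 tested, made up 12 of 12 rises and 2 of 4 falls. These 2 falls were EIF5A and EIF5A2, and EIF5A acts in elongation and termination. The other 2 falls were the elongation-related EEF2K and EEF2KMT. In all, 55 of the 61 factors passed the filter, and none passed through 1 group only. The 6 that did not, EIF1AY, EIF3C, EIF4E1B, EIF4E3, EIF5AL1 and EEF1E1-BLOC1S5, stayed at or below 1.21 FPKM in every library. Of the 55, 16 were called (29.1%), 12 higher and 4 lower in DON. Over all tested genes the share called was 38.9%, with 18.3% higher and 20.6% lower, so the factors were not called more often than genes at large. The 3 libraries of each group did not overlap for 22 of the 55, 14 higher and 8 lower, where all tested genes gave 51.5%, 24.9% higher and 26.5% lower. The median log2 fold change was 0.10 over the factors and -0.01 over all tested genes. In the 46 tested EIF genes 12 rose and 2 fell (median 0.16), and in the 9 tested EEF genes 0 rose and 2 fell (median -0.05). The split by symbol is not a split by function, since EIF5A is counted with the EIF genes.

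Summed over all initiation factors as classed by symbol, EIF5A included, the level was 4951, 4861 and 5093 FPKM in vehicle. In DON it was 5914, 6220 and 6047 FPKM. The elongation factors together stood at 5073, 5132 and 4797 FPKM in vehicle and 4803, 4658 and 4592 FPKM in DON. The initiation sums did not overlap between the groups, while the elongation sums overlapped through vehicle 3 and DON 1. Abundant genes weigh most in such sums. Within the initiation sum, EIF1 alone went from a mean of 436 to 876 FPKM and the uncalled EIF3E from 469 to 605. EIF5A went the other way, from 245 to 138 FPKM. All 61 factors together took 1.83% to 1.87% of the summed FPKM in vehicle and 1.92% to 2.03% in DON.

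**Figure D1:**
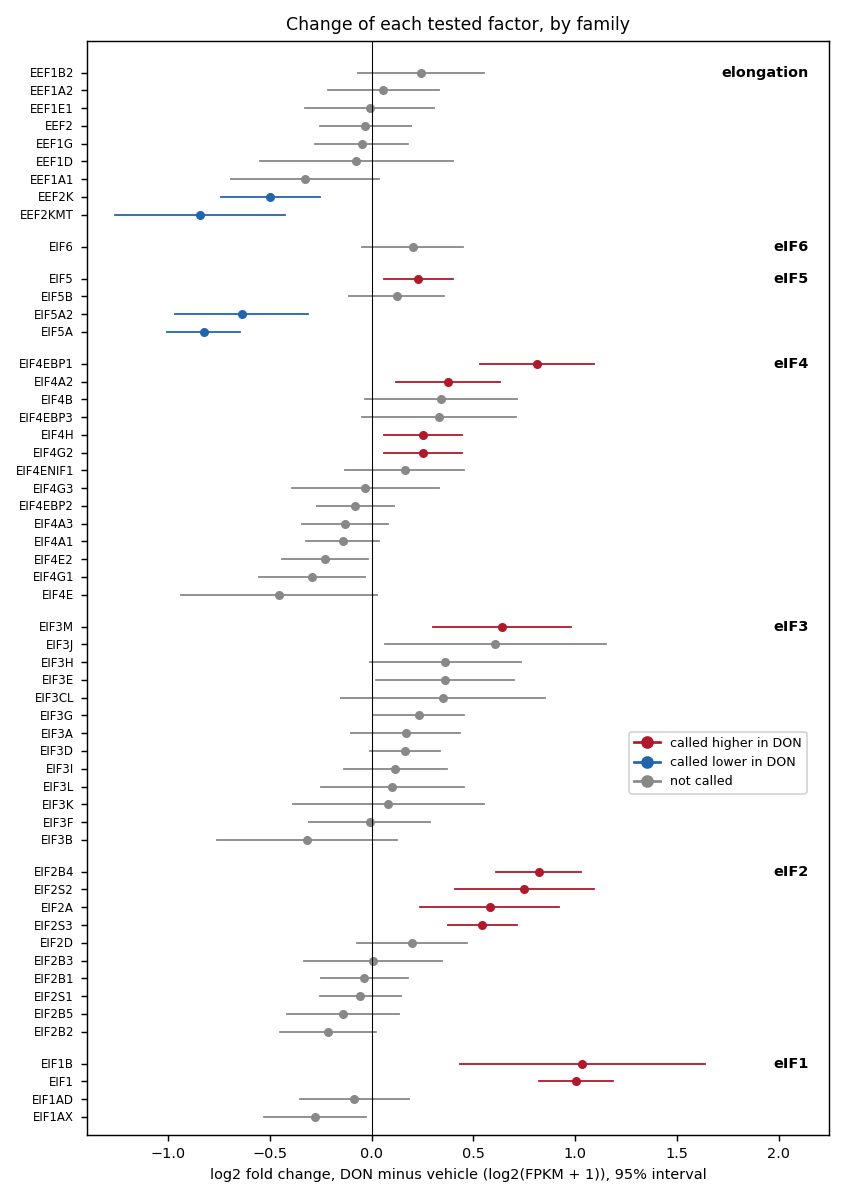
Log2 fold change (DON minus vehicle, log2(FPKM + 1) scale) of the 55 tested factors, grouped by family; bars are 95% confidence intervals from limma, and the colour gives the call. EIF1 and EIF1B lie near 1.0, EIF5A and EEF2KMT near -0.8, and most eIF3 subunits and elongation factors lie within 0.4 of 0.

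Several of the members' start sites carry the 5′ terminal oligopyrimidine (TOP) sequence, through which mTORC1 controls the translation of ribosomal protein and elongation factor mRNAs. The windows below, from RefSeq promoters of GRCh38.p14, span 10 bases before to 15 bases from an annotated start. Capitals mark a C at the start with the pyrimidines that follow it. The first 6 are members with such a start, and the last 2 are the factors with the smallest p among the rises and falls, which lack it.
EEF1A1, chr6:73521018-73521042, minus strand: cgtgaacgttCTTTTTCgcaacggg
EEF2, chr19:3985449-3985473, minus strand: cgtcagcgttCTCTTCCgccgtcgt
EIF2A, chr3:150546777-150546801, plus strand: cgagcggtttCTCTTTCCgggacaa
EIF2S3, chrX:24054946-24054970, plus strand: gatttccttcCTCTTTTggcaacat
EIF3M, chr11:32583821-32583845, plus strand: gcccagttccCTTTTCCggtcggcg
EIF4A2, chr3:186783567-186783591, plus strand: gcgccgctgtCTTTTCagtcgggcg
EIF1, chr17:41688875-41688899, plus strand: ccgcccctctgccccagtcactgag
EIF5A, chr17:7306989-7307013, plus strand: tgggaacccgaccacactagcgcgc

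Of the 61 factors, 50 had a promoter in the RefSeq table. The 11 without one were not searched, among them the called EIF2S2, EIF4EBP1 and EEF2KMT and the uncalled EEF1D, EIF3E and EIF3H. A C at an annotated start followed by at least 4 pyrimidines was found in 12 of the 50 searched (24%). It was found in 5.14% of all 27305 genes in the table, 7.73% of tested genes and 72.3% of cytosolic ribosomal proteins. The 12 were EEF1A1, EEF1B2, EEF2, EIF2A, EIF2D, EIF2S3, EIF3D, EIF3F, EIF3K, EIF3M, EIF4A2 and EIF4B. EIF2A, EIF2S3, EIF3M and EIF4A2 rose in DON, 0 of the 12 fell, and their median log2 fold change was 0.22. Among the 32 tested members with a promoter and no such start, 6 rose and 3 fell (median -0.04). The difference between these sets was not tested. No match says only that these letters are not at that annotated base. It was also missing in some cytosolic ribosomal proteins, so TOP mRNAs can be missed. Over all tested genes 38.9% were called, 18.3% higher and 20.6% lower. The calls of EIF2A and EIF4A2 ended in some fits without 1 library, and those of EIF3M and EIF4A2 with a GC correction.

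In the eIF1 family, EIF1 and EIF1B rose to about the same degree from very different levels. EIF1, which monitors start codon recognition, stood at 430.4, 440.3 and 437 FPKM in vehicle and at 849, 891 and 887 FPKM in DON. The groups were far apart and the libraries of each lay close together. The mean rose 2.01-fold, from 436 ± 5.01 to 876 ± 23.5 FPKM (log2 fold change 1.00 ± 0.08 SE, adjusted p = 0.000172). EIF1 had the smallest adjusted p of all the factors. Its log2 fold change was 0.96 in the set with DON 1 and 1.02 in the set with DON 2 and DON 3, and pairs of such values are given in this order from here on.

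EIF1B, a paralog of EIF1, stood at 28.3, 32.3 and 50.8 FPKM in vehicle and at 56.4, 80.9 and 91.8 FPKM in DON. Vehicle 3 was close to DON 1, and the groups did not overlap. The mean rose 2.06-fold, from 37.1 ± 12.03 to 76.3 ± 18.1 FPKM (1.04 ± 0.26 SE, adjusted p = 0.0179), with 0.88 and 0.75 within the sets of libraries. Leaving out vehicle 1 (adjusted p = 0.0595), vehicle 2 (0.0617), DON 2 (0.0660) or DON 3 (0.0555) ended the call. EIF1AX, which encodes eIF1A, stood at 19.2, 15.01 and 16.8 FPKM in vehicle and at 13.4, 13.6 and 14.3 FPKM in DON (-0.28, adjusted p = 0.0753, and 0.0260 with a GC correction). All DON libraries lay under all vehicle libraries. EIF1AD, an eIF1A-like protein, was not called (-0.08, adjusted p = 0.581). Summed over the family, the level was 493 to 516 FPKM in vehicle and 932 to 1006 FPKM in DON, and most of this was EIF1.

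In eIF2, a complex of 3 subunits, the beta and gamma subunits rose and the alpha subunit was not called. EIF2S1, the alpha subunit that stress kinases phosphorylate, stood at 24.7, 22.4 and 24.6 FPKM in vehicle and at 22.3, 24.3 and 22.3 FPKM in DON (-0.06, 95% interval -0.26 to 0.14, adjusted p = 0.623). Its groups overlapped. EIF2S2, the beta subunit, stood at 103, 78.1 and 98.0 FPKM in vehicle and at 133, 167 and 170.4 FPKM in DON. Its mean rose 1.69-fold, from 93.0 ± 13.2 to 157 ± 20.6 FPKM (0.75 ± 0.14 SE, adjusted p = 0.00673). Within the sets of libraries its log2 fold changes were 0.57 and 0.78.

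EIF2S3, the gamma subunit that binds GTP and the initiator tRNA, stood at 67.2, 64.0 and 66.9 FPKM in vehicle and at 96.3, 97.7 and 96.1 FPKM in DON. All DON libraries lay above all vehicle libraries. The mean rose 1.46-fold, from 66.0 ± 1.79 to 96.7 ± 0.857 FPKM (0.54 ± 0.07 SE, adjusted p = 0.00147), and the change was 0.55 and 0.53 within the sets of libraries. Per length, the alpha subunit was the lowest of the 3 in every library.

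**Figure D2:**
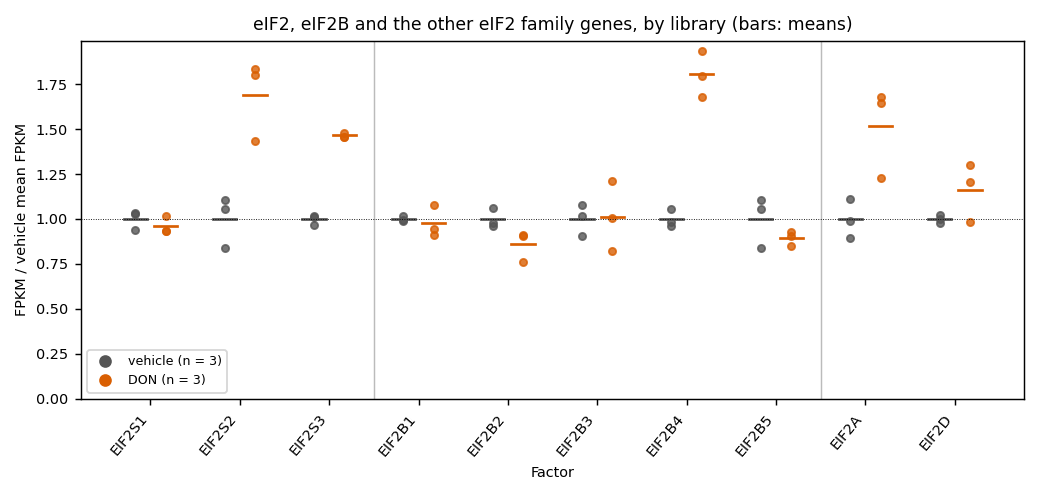
FPKM of eIF2 and eIF2B subunits, EIF2A and EIF2D in each library divided by the gene's vehicle mean; points are libraries, bars are group means and colours are groups. EIF2S2, EIF2S3, EIF2B4 and EIF2A stand above 1 in all 3 DON libraries, while EIF2S1, EIF2B1 and EIF2B3 overlap between the groups.

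Of the 5 subunits of eIF2B, the exchange factor, only EIF2B4 was called. EIF2B4, the delta subunit, stood at 23.7, 21.5 and 22.1 FPKM in vehicle and at 43.3, 40.3 and 37.7 FPKM in DON. The mean rose 1.80-fold, from 22.4 ± 1.12 to 40.4 ± 2.83 FPKM (0.82 ± 0.09 SE, adjusted p = 0.000631). Its change was 0.91 and 0.79 within the sets of libraries. EIF2B1 stood at means of 41.0 and 40.1 FPKM (-0.03, adjusted p = 0.783), EIF2B3 at 8.58 and 8.69 (0.01, adjusted p = 0.980) and EIF2B5, the catalytic epsilon subunit, at 10.2 and 9.09 (-0.14, adjusted p = 0.379). EIF2B2, the beta subunit, went from 29.04 ± 1.56 to 25.0 ± 2.45 FPKM without overlap (-0.21, adjusted p = 0.131). It passed as lower with a GC correction (adjusted p = 0.0137) and with a term for the split of the libraries (adjusted p = 0.00843).

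EIF2A and EIF2D, which are not eIF2 subunits but can deliver initiator tRNA by other routes, gave 1 call, for EIF2A. EIF2A stood at 34.9, 31.6 and 39.2 FPKM in vehicle and at 43.3, 59.1 and 58.0 FPKM in DON. Its mean rose 1.52-fold, from 35.2 ± 3.82 to 53.4 ± 8.83 FPKM (0.58 ± 0.14 SE, adjusted p = 0.0186), with 0.37 and 0.57 within the sets of libraries. It lost the call when vehicle 1 (adjusted p = 0.0563), vehicle 2 (0.0660), DON 2 (0.0760) or DON 3 (0.0627) was left out. EIF2A shares 146 exonic bases with SERP1 on the opposite strand in GENCODE 29, and SERP1, a gene of endoplasmic reticulum stress, rose from 51.1 ± 2.98 to 145 ± 15.1 FPKM. Whether the counting used strand is not given in the sources used here, so the value of EIF2A is uncertain. EIF2D was not called (0.20, adjusted p = 0.207, and 0.0323 without DON 1).

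In eIF3, the scaffold of the small subunit, EIF3M rose and 12 of 13 tested subunits or associated genes were not called. EIF3M stood at 186, 188 and 157 FPKM in vehicle and at 329, 272 and 234 FPKM in DON. Its lowest DON library was above its highest vehicle library. The mean rose 1.57-fold, from 177 ± 17.4 to 278 ± 47.9 FPKM (0.64 ± 0.14 SE, adjusted p = 0.0125). The change was 0.81 and 0.68 within the sets of libraries, and a GC correction ended the call (0.53, adjusted p = 0.0594).

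The log2 fold changes of eIF3 ran from -0.32 to 0.64 with a median of 0.17, and 11 of 13 were positive. The member of highest mean level was EIF3E, at 457, 427 and 522 FPKM in vehicle and 493, 654 and 668 FPKM in DON (0.36, adjusted p = 0.0878). EIF3H stood at 297, 297 and 399 FPKM in vehicle and at 358, 460 and 455 FPKM in DON (0.36, adjusted p = 0.108). In both genes DON 1 lay inside the vehicle range. EIF3E passed as higher without DON 1 (adjusted p = 0.0147), with a block for replicate number (0.0402) and with the split term (0.0159). EIF3H did so without vehicle 3 (0.0294), without DON 1 (0.0437), with that block (0.0330) and with the split term (0.00757). EIF3J, a loosely bound subunit that acts in mRNA entry and recycling, showed the same layout, at 41.1, 38.8 and 54.5 FPKM in vehicle and 47.9, 79.4 and 82.7 FPKM in DON (0.61, 95% interval 0.06 to 1.15, adjusted p = 0.0745). EIF3J passed as higher without DON 1 (adjusted p = 0.00731), without vehicle 3 (0.0478), with the replicate block (0.0187) and with the split term (0.00498).

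EIF3D, which can bind the cap of some mRNAs, and EIF3G did not overlap between groups but were not called (0.16 and 0.23, adjusted p = 0.119 and 0.0922). With a GC correction EIF3G passed (adjusted p = 0.0451), and EIF3D did without a filter (0.0433) and with the split term (0.0471). EIF3B, a core subunit, had the lowest estimate of the family, at 235, 236 and 169 FPKM in vehicle and 210, 162 and 142 FPKM in DON (-0.32, adjusted p = 0.216). It passed as lower with the replicate block (adjusted p = 0.0382). EIF3A, the largest subunit, was not called (0.17, adjusted p = 0.275), but passed as higher with the split term (0.0167). With that term 6 eIF3 genes were higher, against 1 without it. The remaining EIF3F, EIF3I, EIF3K and EIF3L had estimates from -0.01 to 0.12. EIF3CL was not called (0.35, adjusted p = 0.229). EIF3C and EIF3CL are near-identical copies whose reads can be split between them, and neither exceeded a mean of 1.36 FPKM, so the level of the eIF3c subunit is uncertain here.

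**Figure D3:**
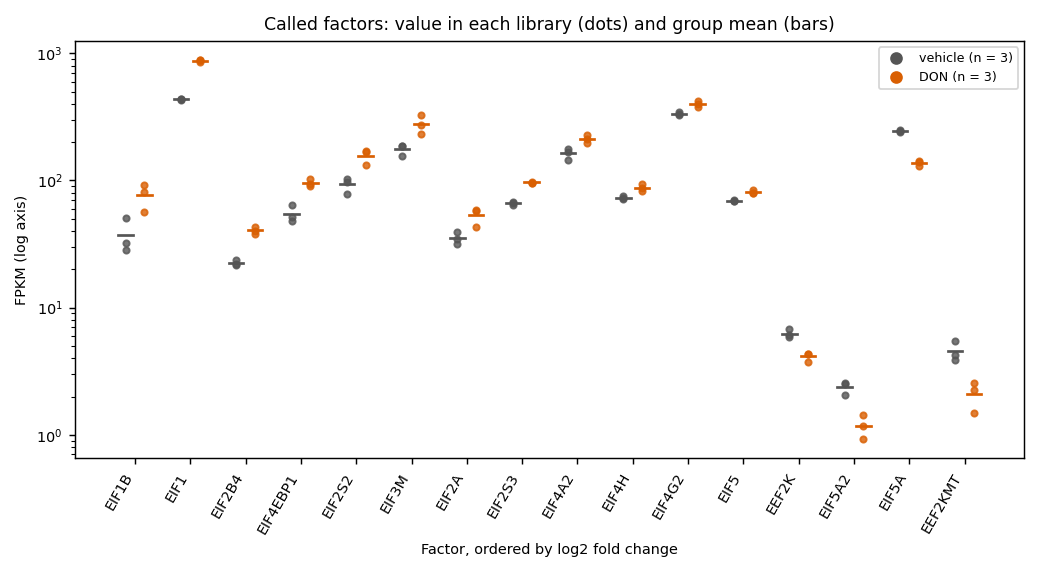
FPKM on a log axis in each of the 6 libraries for the 16 called factors, with colours for the groups. The groups of every gene are apart, for example in EIF1 (430.4 to 440.3 against 849 to 891 FPKM) and EIF5A (242 to 248 against 131 to 143 FPKM).

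Among the eIF4 genes, the repressor EIF4EBP1 rose, as did EIF4A2, EIF4G2 and EIF4H, and 0 of 14 tested fell. With the split term 5 were higher and 4 lower. EIF4EBP1, the 4E-BP that sequesters eIF4E, stood at 52.0, 48.2 and 63.6 FPKM in vehicle and at 90.9, 103 and 94.5 FPKM in DON. The mean rose 1.76-fold, from 54.6 ± 8.02 to 96.1 ± 6.15 FPKM (0.81 ± 0.12 SE, adjusted p = 0.00233), with 0.85 and 0.62 within the sets of libraries. EIF4EBP2, a paralog, stood at 40.7 ± 1.59 and 38.5 ± 1.89 FPKM (-0.08, 95% interval -0.27 to 0.11, adjusted p = 0.457). EIF4EBP3, which shares exons with the readthrough gene ANKHD1-EIF4EBP3, stood at 16.8 ± 3.39 and 21.3 ± 2.80 FPKM (0.33, adjusted p = 0.144).

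EIF4E, the cap-binding protein, stood at 6.53, 5.56 and 8.09 FPKM in vehicle and at 3.21, 5.19 and 5.67 FPKM in DON. DON 3 lay above vehicle 2, and the gene was not called (-0.46, 95% interval -0.94 to 0.03, adjusted p = 0.119). It passed as lower with a GC correction (adjusted p = 0.0354) and with the split term (adjusted p = 0.00281). EIF4E shares 171 exonic bases with the pseudogene TBCAP3 on the same strand and 62 with AC019131.1 on the opposite strand. Its value is therefore uncertain. EIF4E2, a cap-binding protein that represses translation, went from 49.1 ± 2.83 to 41.8 ± 2.89 FPKM without overlap and was not called (-0.23, adjusted p = 0.0802, and 0.0367 with the split term).

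The ratio of the FPKM of EIF4EBP1 to that of EIF4E was 7.97, 8.67 and 7.86 in vehicle and 28.3, 19.8 and 16.7 in DON. These ratios did not overlap. The log2 ratio, taken on FPKM + 1 as for all pairs here, was higher in DON by 1.27 (exact permutation p = 0.1, adjusted p = 0.15 over 6 pairs). With a pseudocount of 0.1 it was higher by 1.36. The transcripts of EIF4EBP1 and EIF4E differ in GC content (65.5% and 42.8%), and the part of this in the ratio was not tested. The ratio of EIF4EBP1 to EIF4EBP2 was 1.34, 1.16 and 1.53 in vehicle and 2.50, 2.63 and 2.37 in DON (log2 difference 0.89, exact permutation p = 0.1, adjusted p = 0.15). With 3 libraries against 3, a two-sided exact test cannot go below 0.1, so no ratio can pass. Between EIF4E and EIF4E2 the log2 ratio differed by -0.23 with overlapping groups (exact permutation p = 0.6).

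The paralogs of the helicase eIF4A had estimates of opposite sign. EIF4A1, the main form, which shares exons with the readthrough gene SENP3-EIF4A1, stood at 349.8, 361 and 374 FPKM in vehicle and at 322, 325 and 336 FPKM in DON, without overlap (-0.14, adjusted p = 0.179, and 0.0349 with the split term). EIF4A2 stood at 178, 167 and 144 FPKM in vehicle and at 226, 212 and 196 FPKM in DON. Its mean rose 1.30-fold, from 163 ± 17.4 to 212 ± 15.03 FPKM (0.38 ± 0.11 SE, adjusted p = 0.0303). Leaving out vehicle 2, vehicle 3, DON 1 or DON 2 ended the call (adjusted p 0.0638 to 0.0994), and so did a GC correction (0.0537). EIF4A2 shares 21 exonic bases with RFC4 on the opposite strand, and RFC4 rose from 21.0 ± 2.88 to 42.5 ± 2.70 FPKM. EIF4A2 also shares 93 exonic bases with the antisense gene AC112907.3. The FPKM ratio of EIF4A1 to EIF4A2 was 1.96, 2.16 and 2.60 in vehicle and 1.42, 1.53 and 1.71 in DON (log2 difference -0.52, exact permutation p = 0.1, adjusted p = 0.15). EIF4A3, the helicase of the exon junction complex, was not called (-0.13, adjusted p = 0.291).

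Of the scaffolds, EIF4G1, the main eIF4G, stood at 71.5, 74.4 and 62.8 FPKM in vehicle and at 63.9, 53.3 and 52.8 FPKM in DON (-0.29, adjusted p = 0.0750). It passed as lower with quantile normalization (adjusted p = 0.0433), without vehicle 3 (0.0495), without DON 1 (0.0264), with the replicate block (0.0387) and with the split term (0.0141). EIF4G2, which lacks the eIF4E-binding part and serves cap-independent initiation, rose from 334 ± 11.2 to 399 ± 20.2 FPKM (0.25 ± 0.08 SE, adjusted p = 0.0450). EIF4H, a cofactor of eIF4A, likewise rose from 73.2 ± 1.96 to 87.5 ± 5.50 FPKM (0.25, adjusted p = 0.0449). Neither call stood when vehicle 1, 2 or 3 or DON 2 or 3 was left out (adjusted p 0.0588 to 0.174). EIF4B, another cofactor of eIF4A, stood at 196, 212 and 161 FPKM in vehicle and at 287, 236 and 202 FPKM in DON (0.34, adjusted p = 0.131). It passed as higher with quantile normalization (adjusted p = 0.0497), with the replicate block (0.0305) and with the split term (0.00235). EIF4G3 and the eIF4E transporter EIF4ENIF1 were not called.

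**Figure D4:**
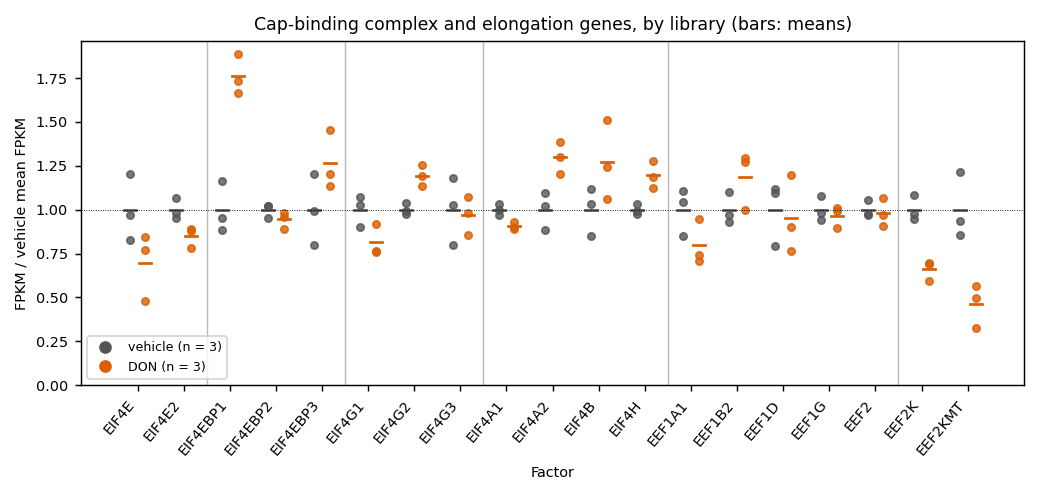
FPKM in each library divided by the gene's vehicle mean, for cap-complex genes and for elongation factors; points are libraries, bars are group means and colours are groups. EIF4EBP1 stands apart from EIF4EBP2 and EIF4E, and the elongation factors other than EEF2K and EEF2KMT overlap between the groups.

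In the eIF5 family EIF5A and EIF5A2 fell and EIF5 rose. EIF5A, the hypusine-containing factor that helps ribosomes past difficult peptide bonds in elongation and termination, stood at 242, 243 and 248 FPKM in vehicle and at 131, 143 and 139 FPKM in DON. The groups were far apart. The mean fell 1.78-fold, from 245 ± 3.24 to 138 ± 6.07 FPKM (-0.83 ± 0.08 SE, adjusted p = 0.000339), with -0.88 and -0.81 within the sets of libraries.

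EIF5A2, its low-level paralog, stood at 2.52, 2.04 and 2.58 FPKM in vehicle and at 0.923, 1.17 and 1.43 FPKM in DON. The mean fell 2.02-fold, from 2.38 ± 0.294 to 1.17 ± 0.254 FPKM (-0.64 ± 0.14 SE, adjusted p = 0.0110), with -0.77 and -0.64 within the sets of libraries. The FPKM ratio of EIF5A to EIF5A2 ranged from 96.1 to 119 in vehicle and from 97.0 to 142 in DON and overlapped. On the log2(FPKM + 1) scale this ratio differed by -0.19 (exact permutation p = 0.1), and with a pseudocount of 0.1 by 0.14, so it has no settled direction. EIF5AL1, a near-copy of EIF5A, was below the filter, and reads of the pair can be split.

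EIF5, the GTPase-activating protein of eIF2, stood at 68.6, 68.9 and 70.6 FPKM in vehicle and at 80.1, 84.4 and 80.2 FPKM in DON. The mean rose 1.18-fold, from 69.4 ± 1.08 to 81.6 ± 2.48 FPKM (0.23 ± 0.07 SE, adjusted p = 0.0423). Leaving out any 1 of the 6 libraries ended the call (adjusted p 0.0518 to 0.171), as did a GC correction (0.0622). EIF5B, which joins the ribosomal subunits, was not called (0.12, adjusted p = 0.354). EIF6, which keeps the subunits apart, stood at 174 ± 22.4 and 200 ± 3.39 FPKM (0.20, adjusted p = 0.169). Leaving out vehicle 3 gave it a call as higher (0.0344).

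CACGTG, an E-box read by MYC and related factors, lies in the promoters of EIF1B, which rose, and EIF5A2, which fell. The sequences are the 250 bases before an annotated start, from RefSeq on GRCh38.p14, with CACGTG in capitals.
EIF1B, chr3:40309457-40309706, plus strand: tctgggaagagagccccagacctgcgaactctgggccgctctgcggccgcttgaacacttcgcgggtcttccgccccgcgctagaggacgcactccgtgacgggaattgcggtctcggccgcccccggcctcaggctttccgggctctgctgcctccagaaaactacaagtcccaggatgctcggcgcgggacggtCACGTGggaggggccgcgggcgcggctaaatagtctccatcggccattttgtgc
EIF5A2, chr3:170908638-170908887, minus strand: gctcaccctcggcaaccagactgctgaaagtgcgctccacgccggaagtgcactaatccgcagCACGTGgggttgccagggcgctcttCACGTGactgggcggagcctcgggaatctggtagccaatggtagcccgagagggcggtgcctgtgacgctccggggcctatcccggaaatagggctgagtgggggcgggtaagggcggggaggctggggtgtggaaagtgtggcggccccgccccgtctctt
Searched on both strands, CACGTG occurred in 12 of 50 members (24%), in 7.73% of all genes and in 11.5% of tested genes. Of these 12, EIF1B and EIF4H rose and EEF2K and EIF5A2 fell, where 38.9% of all tested genes were called. TGATGNAAN, the composite site read by ATF4 with C/EBP partners, occurred in 1 of 50 members (EIF4E3). It occurred in 3.87% of all genes and in 2.07% of tested genes. TGACGTCA, the cAMP response element, occurred in 1 of 50 (EEF2), in 2.03% of all genes and in 3.57% of tested genes. No match says only that these letters are not in this window. EIF2S2, EIF4EBP1 and EEF2KMT, which had no RefSeq promoter, were not searched for any of these sequences.

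The elongation factors that carry tRNA and move the ribosome were not called, and the 2 genes that act on eEF2 fell. EEF1A1, the most abundant factor here, which delivers aminoacyl-tRNA, stood at 2214, 2342 and 1796 FPKM in vehicle and at 2002, 1571 and 1501 FPKM in DON. Vehicle 3 lay below DON 1, and the log2 fold change was -0.33 (95% interval -0.69 to 0.04, adjusted p = 0.134). EEF1A1 passed as lower with quantile normalization (adjusted p = 0.0262), without DON 1 (0.0406) and with the split term (0.0248). EEF2, the translocase, stood at 614 ± 29.5 and 602 ± 49.9 FPKM (-0.03, 95% interval -0.26 to 0.19, adjusted p = 0.819). EEF1B2, a subunit of the exchange factor of eEF1A, stood at 904, 864 and 1026 FPKM in vehicle and at 930.2, 1184 and 1205 FPKM in DON (0.24, adjusted p = 0.183, and 0.0374 without DON 1). EEF1G stood at 884 ± 62.5 and 854 ± 54.3 FPKM and EEF1D at 404 ± 73.6 and 385 ± 88.9 FPKM. EEF1A2 and EEF1E1 were not called either, and adjusted p of the 7 genes not called ranged from 0.134 to 0.960. The log2 ratio of EEF1A1 to EEF1A2 differed by -0.39 with overlapping groups (exact permutation p = 0.2, adjusted p = 0.24).

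EEF2K, the kinase that phosphorylates and inhibits eEF2, stood at 5.91, 6.75 and 6.08 FPKM in vehicle and at 3.72, 4.33 and 4.35 FPKM in DON. The mean fell 1.51-fold, from 6.25 ± 0.444 to 4.13 ± 0.358 FPKM (-0.50 ± 0.10 SE, adjusted p = 0.00902), with -0.63 and -0.41 within the sets of libraries. EEF2KMT, which methylates a lysine of eEF2, stood at 4.25, 3.89 and 5.52 FPKM in vehicle and at 1.49, 2.27 and 2.57 FPKM in DON. All DON libraries lay under all vehicle libraries. The mean fell 2.16-fold, from 4.55 ± 0.855 to 2.11 ± 0.560 FPKM (-0.84 ± 0.18 SE, adjusted p = 0.00985), with -1.03 and -0.93 within the sets of libraries. EEF2KMT shares 838 exonic bases with ALG1 on the opposite strand, and ALG1 stood at 14.7 ± 1.19 and 12.8 ± 2.19 FPKM (adjusted p = 0.301), so the value of EEF2KMT is uncertain if strand was not used.

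None of the 16 called factors had overlapping groups, which by itself fixes the same sign within both sets of libraries. In 10 of them the call stood whichever library was left out: EIF1, EIF2B4, EIF2S2, EIF2S3, EIF3M, EIF4EBP1, EIF5A, EIF5A2, EEF2K and EEF2KMT. Without a filter on low values, which tests more genes, EIF2S2 (adjusted p = 0.0510), EIF3M (0.0759), EIF5A2 (0.0537) and EEF2KMT (0.0704) of these lost it. The other 6, EIF1B, EIF2A, EIF4A2, EIF4G2, EIF4H and EIF5, lost it in at least 1 such fit. Further called factors share exonic bases with an annotated gene on the opposite strand. They are EIF1B (15 bases, EIF1B-AS1), EIF2B4 (103, AC074117.1), EEF2K (663, AC009034.1) and EIF3M (742, CCDC73). CCDC73 had means of 0.0194 and 0.0811 FPKM. Uncalled factors share such bases as well, among them EIF2S1, EIF2B1 (536 bases, DDX55) and EIF2B2 (1098, AL049780.3). Their values are likewise uncertain if strand was not used.

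**Figure D5:**
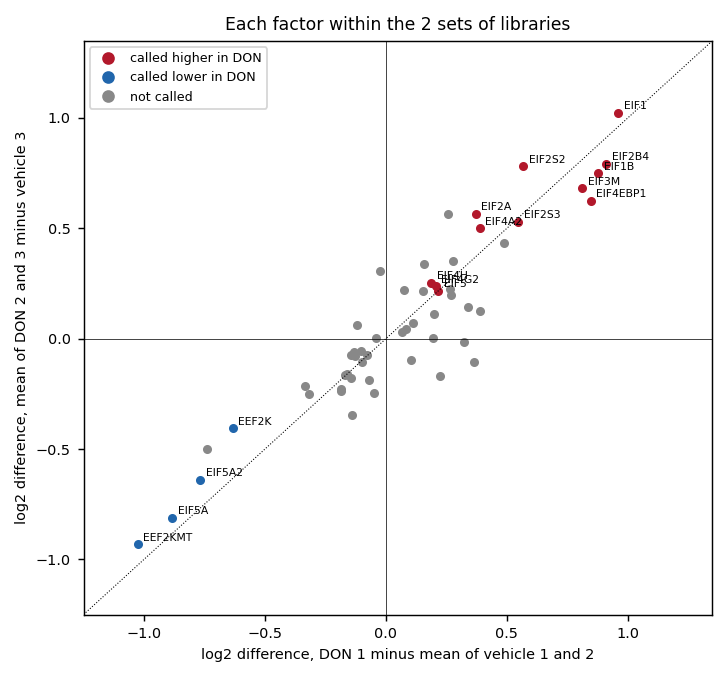
Log2 fold change of the tested factors within vehicle 1, vehicle 2 and DON 1 (horizontal axis) against that within vehicle 3, DON 2 and DON 3 (vertical axis); each point is a factor and the line marks equal values. EIF2S2 lies at 0.57 and 0.78 and EIF4EBP1 at 0.85 and 0.62. Equal signs of the called factors follow from their groups not overlapping, and each set has a group of 1 library.

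Around eIF2, 3 of 6 kinases and phosphatase adaptors rose and 0 fell (50% called, median 0.19). Over all tested genes 38.9% were called, 18.3% higher and 20.6% lower. EIF2AK3, the kinase PERK of the endoplasmic reticulum, stood at 5.30, 5.75 and 5.76 FPKM in vehicle and at 12.9, 12.5 and 12.8 FPKM in DON, a 2.27-fold rise (adjusted p = 0.0002). EIF2AK1, EIF2AK2 and EIF2AK4 were not called. PPP1R15A (GADD34), the inducible subunit of the phosphatase that removes the phosphate from eIF2 alpha, rose 3.49-fold from 18.2 ± 4.03 to 63.5 ± 16.1 FPKM (adjusted p = 0.00123). Its constitutive relative PPP1R15B rose 1.28-fold from 15.7 ± 0.875 to 20.1 ± 0.518 FPKM (adjusted p = 0.0162). That call ended when vehicle 2 (0.0605), DON 2 (0.0713) or DON 3 (0.0640) was left out.

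Upstream of the cap complex, 5 of 18 mTORC1 and cap-complex regulators rose and 5 fell (median 0.00). This was 55.6% called, against 38.9% of all tested genes. SESN2 and DDIT4, stress-induced inhibitors of mTORC1, rose 4.09-fold (2.35 ± 0.313 to 9.64 ± 1.66 FPKM) and 2.94-fold (57.1 ± 9.0004 to 168 ± 22.3 FPKM). DEPTOR, an inhibitor within the mTOR complexes, fell 1.98-fold from 22.3 ± 2.55 to 11.2 ± 0.985 FPKM. The other called genes of this list were named after their values were seen. PDCD4, which inhibits eIF4A, rose from 31.5 ± 4.81 to 56.1 ± 4.54 FPKM (adjusted p = 0.00301) and MKNK2, a kinase of eIF4E, from 39.3 ± 2.11 to 68.0 ± 6.85 FPKM (adjusted p = 0.00129). MKNK1, its paralog, rose as well (0.53, adjusted p = 0.00434). The mTORC1 subunits AKT1S1, MLST8 and RPTOR fell (-0.81, -0.55 and -0.47, adjusted p = 0.00108, 0.0105 and 0.0411), as did LARP1, which binds TOP mRNAs (-0.28, adjusted p = 0.0286). These are mRNA levels, and the activity of mTORC1 was not measured here. A GC correction ended the calls of MLST8 (-0.28, adjusted p = 0.218) and RPTOR (-0.30, adjusted p = 0.0819). Quantile normalization also ended that of RPTOR (adjusted p = 0.0754). RPTOR stayed called without vehicle 3 but not without any other library (0.0550 to 0.124), and LARP1 was not called without vehicle 1, vehicle 2, DON 2 or DON 3 (0.0817 to 0.121).

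Of 4 tested poly(A)-binding proteins and partners, which close the mRNA loop through eIF4G, 2 rose and 0 fell (median 0.50). This was 50% called, against 38.9% of all tested genes. PABPC4 rose 1.77-fold from 74.9 ± 2.197 to 133 ± 8.996 FPKM, and PAIP2, an inhibitor of poly(A)-binding protein, rose 1.69-fold from 116 ± 2.86 to 196 ± 8.01 FPKM. PABPC1, the most abundant of the list, went from 1125 ± 76.4 to 962 ± 26.0 FPKM without overlap. Neither PABPC1 (-0.22, adjusted p = 0.0856) nor PAIP1 (0.25, adjusted p = 0.0689) was called. Summed, the list ranged from 1300 to 1438 FPKM in vehicle and from 1315 to 1354 FPKM in DON. Of 7 accessory initiation, rescue and recycling factors 0 rose and 2 fell (28.6% called, against 38.9% of all tested genes, median 0.17). ABCE1, which splits ribosomes for recycling, fell 1.36-fold from 42.4 ± 0.730 to 31.1 ± 1.96 FPKM (adjusted p = 0.00609), and DDX3X, a helicase, fell 1.19-fold (adjusted p = 0.0381), which left the called genes when any of the 6 libraries was left out (0.0657 to 0.116). Of 3 termination factors 1 rose and 0 fell (33.3% called, against 38.9% of all tested genes, median 0.22). The gene called was ETF1, the release factor that reads stop codons, with a 1.32-fold rise (adjusted p = 0.00578).

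Of 12 enzymes that modify translation factors, 3 rose and 1 fell (33.3% called, against 38.9% of all tested genes, median 0.05). DPH3, DNAJC24 and DPH1, which take part in making diphthamide on eEF2, rose 1.66-fold, 1.58-fold and 1.57-fold. DPH2, DPH5, DPH6 and DPH7 of the same pathway were not called (-0.16, 0.13, 0.43 and -0.07). METTL13, which methylates eEF1A, is the gene that fell, and it was named after its value was seen (-0.51, adjusted p = 0.0172, and 0.0539 without vehicle 2 and 0.0709 without DON 2). DHPS and DOHH, which make hypusine on eIF5A, were not called (-0.19 and -0.07, adjusted p = 0.138 and 0.875).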

How the data were processed

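Poly(A) RNA libraries from AsPC-1 cells, 3 per group, were sequenced, per the labels' protocols. The authors deposited FPKM values per gene symbol. STAR and hg19 are named as aligner and build, per the submitters' processing notes. The sources used here do not give the FPKM program, its annotation or its strand setting. Columns named control were taken as vehicle by replicate number. FPKM hold no counts, so the depth is unknown and counting intervals were not computed. The lowest value is 0.01, and 41 rows with a failure mark, none a member, were left out of tests.

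Log2(FPKM + 1) was fitted in limma 3.58.1 (R 4.3.3) with an intensity trend, two-sided, without a replicate block. Python 3.11.15 ran tables and plots, through pandas 2.3.3, numpy 2.4.6 and matplotlib 3.10.9. The fit was tested on simulated data. Ratios of 6 pairs were compared by exact two-sided permutation. Fold values are ratios of mean FPKM. The GC correction, with a value for 98.3% of tested genes, and the split term were chosen after seeing the data. Alternatives fixed earlier were another pseudocount, other filters, 2 other scalings, leaving out each library, a replicate block and no trend.

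The labels do not tell separate cultures from repeat libraries, so p-values measure only the spread between these samples, and that spread may be technical. Same-numbered libraries did not deviate together in every pair, so the numbers were not taken as pairs. The members and lists were chosen with earlier results of these data known. Full values were given for called members with a log2 change of at least 0.5 in size, called eIF2 and eIF2B genes and the highest member of each family, and up to 3 called genes per other list by size. Promoter sequences are RefSeq's on GRCh38.p14, matched by symbol, and exon overlaps are from GENCODE 29. An item of the fixed marker lists is not reported here.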

Additional observations from a re-analysis of the deposited data

How the results depend on the processing

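Against 12 factors higher and 4 lower, the counts were 6 and 2 without a filter (61 factors, 26187 genes), 12 and 2 with a filter at 5 FPKM, 11 and 6 with quantile normalization, 10 and 7 with the GC correction and 18 and 10 with the split term. Leaving out 1 library gave 6 to 15 higher and 4 to 6 lower, with 7 higher without vehicle 1 or DON 3 and 6 without vehicle 2 or DON 2. With a replicate block they were 16 higher and 6 lower, and all 16 called factors were still called. The calls gained were EIF3E, EIF3H, EIF3J and EIF4B as higher and EIF3B and EIF4G1 as lower. The replicate numbers are shared labels only: deviations of same-numbered libraries correlated at 0.254, -0.184 and 0.502, and vehicle 2 correlated best with DON 1 (0.389). Of the 16 called factors, 7 were called without a filter (not EIF1B, EIF2A, EIF2S2, EIF3M, EIF4A2, EIF4G2, EIF4H, EIF5A2 and EEF2KMT), 14 at 5 FPKM (EIF5A2 and EEF2KMT were not tested), 14 with quantile normalization (not EIF4H and EIF5), 13 without a trend (not EIF4G2, EIF4H and EIF5), 13 with the GC correction (not EIF3M, EIF4A2 and EIF5), 16 with the split term and 10 to 14 without 1 library. The cause was not tested.

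No called factor changed sign under any of the 15 alternatives, and 12 uncalled ones did. The GC correction gave 0.16 for EEF1D, 0.024 for EEF1G, 0.054 for EEF2, -0.041 for EIF2B3 and 0.00729 for EIF3F. The split term gave 0.091 for EEF1D, 0.0033 for EIF2B1 and -0.018 for EIF3L. Median-of-ratios scaling gave 0.00403 for EEF1E1 and 0.00566 for EIF3F. Leaving out 1 library gave -0.25 to 0.071 for EEF1D, -0.12 to 0.087 for EEF1E1, -0.093 to 0.0060 for EEF1G, -0.093 to 0.025 for EEF2, -0.11 to 0.014 for EIF2B1, -0.12 to 0.13 for EIF2B3, -0.090 to 0.092 for EIF3F, -0.030 to 0.15 for EEF1A2, -0.17 to 0.014 for EIF1AD, -0.11 to 0.25 for EIF3K and -0.17 to 0.090 for EIF4G3. The log2 ratio of EIF5A to EIF5A2 turned from -0.19 to 0.14 with a pseudocount of 0.1, and that of EIF4E to EIF4E2 ran from -0.41 to 0.0015 without 1 library. Over all genes, 2096 higher and 2363 lower became 1391 and 1551 without a filter and 1212 and 1485 without DON 2. Depth is unknown, so how far it limits low genes such as EIF5A2 and EEF2KMT cannot be given.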

Other observations

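Of 78 tested cytosolic ribosomal proteins, the other large class of translation genes, 9 rose and 2 fell (14.1%, median log2 fold change 0.12), where 38.9% of all tested genes were called. RPL41 rose 5.84-fold from 61.5 to 359 FPKM, RPL39 rose 1.62-fold and RPS15 fell 1.42-fold. The call of RPL39 ended without vehicle 1 (limma adjusted p = 0.0523) and that of RPS15 without vehicle 1, vehicle 2 or DON 2 (0.0892, 0.0696 and 0.0799) and with a GC correction (0.0997). Of 9 mitochondrial translation factors 2 rose and 1 fell (median 0.01). GFM1, the mitochondrial counterpart of eEF2, fell 1.71-fold from 18.1 ± 0.257 to 10.6 ± 0.908 FPKM (limma adjusted p = 0.00114), while MTIF2, the mitochondrial initiation factor that brings the initiator tRNA, rose 1.51-fold (limma adjusted p = 0.00166). MTIF3 rose 1.43-fold (limma adjusted p = 0.0444), a call lost without vehicle 1, vehicle 2, DON 2 or DON 3 (0.129 to 0.142). In selenocysteine elongation 0 of 2 rose and EEFSEC fell 1.45-fold (limma adjusted p = 0.0352), a call that stood without vehicle 1 but ended without any other library (0.0568 to 0.109) and with a GC correction (-0.23 against -0.44, adjusted p = 0.306).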
